A study of Mus musculus with 8 samples.

Results

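The genes described here are 9 transcriptional regulators that set or maintain the contractile type of skeletal muscle fibres: *Six4*, *Eya1*, *Tbx15*, *Sox6*, *Prox1*, *Vgll2*, *Mef2a*, *Mef2c* and *Mef2d*. They were chosen by symbol, and each of the 9 matched exactly 1 of the 22206 probe sets of the array. Their transcripts were measured in samples of gastrocnemius (GAS) muscle, taken 3 weeks after an intramuscular injection of adeno-associated virus. The mice were males of the C57/Bl6j background, aged 14 weeks per the labels. The paper states that the regions of this muscle differ in fibre type. It does not say which region the array samples came from, and the part of the region in the values was not tested. In the MYTHO group the virus carried a short hairpin RNA against *D230025D16Rik*, the gene coding for MYTHO, and in the scrmb group it carried a scrambled hairpin. The scrambled virus went into the opposite leg of the same mice, so the 8 arrays, 4 in each group, came from 4 animals, called A to D here. Every muscle of both groups thus received a virus and a hairpin, and no uninjected muscle was among the arrays. The hairpins were driven by the U6 promoter, which is not restricted to muscle fibres, and RNA was taken from whole tissue, so a transcript level is an average over all cells of the sample, infected or not.

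Adult limb muscle is a mixture of slow fibres, which are oxidative and resist fatigue, and several kinds of fast fibres, which are more glycolytic. Each kind expresses its own set of myosins, troponins and calcium pumps. SIX-family homeoproteins, with EYA proteins as their co-activators, switch on fast genes, TBX15 is enriched in fast glycolytic fibres, and SOX6 represses slow genes in fast fibres. PROX1 and VGLL2, the latter a cofactor of the TEAD proteins, are needed for the normal slow programme. MEF2 proteins carry calcium signals from nerve activity to slow and oxidative genes and are held back by class IIa histone deacetylases. A change in the amount of such transcripts is 1 level of control among several, since most of these proteins are also regulated by phosphorylation, cofactors and nuclear export, which an array does not read.

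Promoter sequences, from RefSeq on the build GRCm38.p6, are given for the members whose values are the centre of the results or whose window holds the element bound by its own family. Windows of 300 bases, 250 before and 50 after an annotated start, were found for 7 of the 9 genes, all but *Eya1* and *Tbx15*, and made 16 windows in all. The *Vgll2* window is printed whole because *Vgll2* had the largest difference between the groups. Its capitals mark the only E-box, CANNTG, the element of the myogenic bHLH factors, which begins at position -246 relative to the annotated start. The shorter stretches hold the element of the gene's own family, in capitals. They are a MEF3 element, bound by SIX-family proteins, of *Six4*, TCAGGTT read on the other strand and at position -97 from the start, a MEF2 element of *Mef2a*, TATTTTTA read on the other strand and at -1, and 2 SOX elements in 1 of the 6 *Sox6* windows, AACAAT at -236 and the same element read on the other strand at -225.
Vgll2, chr10:52022252-52022551, + strand: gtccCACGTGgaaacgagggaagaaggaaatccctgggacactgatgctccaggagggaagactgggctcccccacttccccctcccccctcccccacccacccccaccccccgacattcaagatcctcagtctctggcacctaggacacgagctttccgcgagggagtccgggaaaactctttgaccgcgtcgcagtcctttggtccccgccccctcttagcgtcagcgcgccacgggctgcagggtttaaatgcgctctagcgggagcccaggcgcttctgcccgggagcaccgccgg
Six4, chr12:73113324-73113354, - strand: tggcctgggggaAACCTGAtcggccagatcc
Mef2a, chr7:67372840-67372871, - strand: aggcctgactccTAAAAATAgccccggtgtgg
Sox6, chr7:115824918-115824958, - strand: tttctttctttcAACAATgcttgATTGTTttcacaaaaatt

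The elements were searched on both strands, and they differ in how common they are. Of 32851 RefSeq mouse windows of the same length, the MEF3 element was in 4.07%, the MEF2 spellings TATTTATA and TATTTTTA in 1.70% and 2.72%, the SOX element in 10.7%, the T-box element AGGTGT in 13.7%, the TEAD element CATTCC in 14.7% and an E-box in 72.3%. T-box and SOX elements can overlap an E-box. Of the 16 windows of these genes, 8 held none of the elements other than the E-box, the *Vgll2* window among them. The G and C content of the *Vgll2* window was 65.3%, against a median of 52.7% over all windows. A match describes the letters in the window only.

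The label of the MYTHO group was checked first. *D230025D16Rik* had log2 signals of 11.35, 11.31, 10.78 and 11.05 on the scrmb arrays of mice A to D and of 8.16, 8.20, 8.80 and 8.08 on the MYTHO arrays. The groups did not overlap, the MYTHO mean was 14.2% of the scrmb mean, and the log2 difference was -2.81 ± 0.21 (SE; limma adjusted p = 0.00044). The arrays had median log2 signals between 6.39 and 6.47. Of 7 skeletal muscle markers, 2 were at the upper limit of the scale, 19.93, on at least 1 array, and the other 5 averaged 18.42 to 18.61 in scrmb and 18.63 to 18.72 in MYTHO muscles, without overlap, of which *Mb* and *Des* had log2 differences of 0.55 and 0.29 and *Ckm*, *Ttn* and *Neb* of -0.03, -0.06 and -0.04. In RNA of whole tissue, fewer cells of a type and less RNA per cell cannot be told apart.

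None of the 9 genes passed the test between the groups after adjustment over all probe sets (limma, Benjamini-Hochberg adjusted p from 0.277 to 0.911). Over the whole array 0.00901% of probe sets were called higher and 0.018% lower in the MYTHO muscles by that rule. *Vgll2* was the only member past the threshold of the study's methods, which asks for 2-fold or more and for p under 0.05 before adjustment, and 1 in 9 compares with 0.261% of probe sets called higher and 1.25% called lower. An unadjusted p under 0.05 alone was met by *Vgll2* and *Tbx15*, both with the higher mean in MYTHO muscles, against 4.81% of probe sets higher and 7.58% lower. All 9 members had overlapping groups, whereas 2.59% of probe sets lay wholly higher and 3.87% wholly lower in the MYTHO muscles. The 9 log2 differences ranged from -0.24 to 1.46 with a median of 0.22, 5 above and 4 below 0, and the median over all probe sets was 0.00. The median of the 9 was 0.11 to 0.33 when 1 array was left out, lowest without the scrmb array of B, and 0.37, 0.01, 0.16 and 0.27 without both arrays of A, B, C or D.

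**Figure D1:**
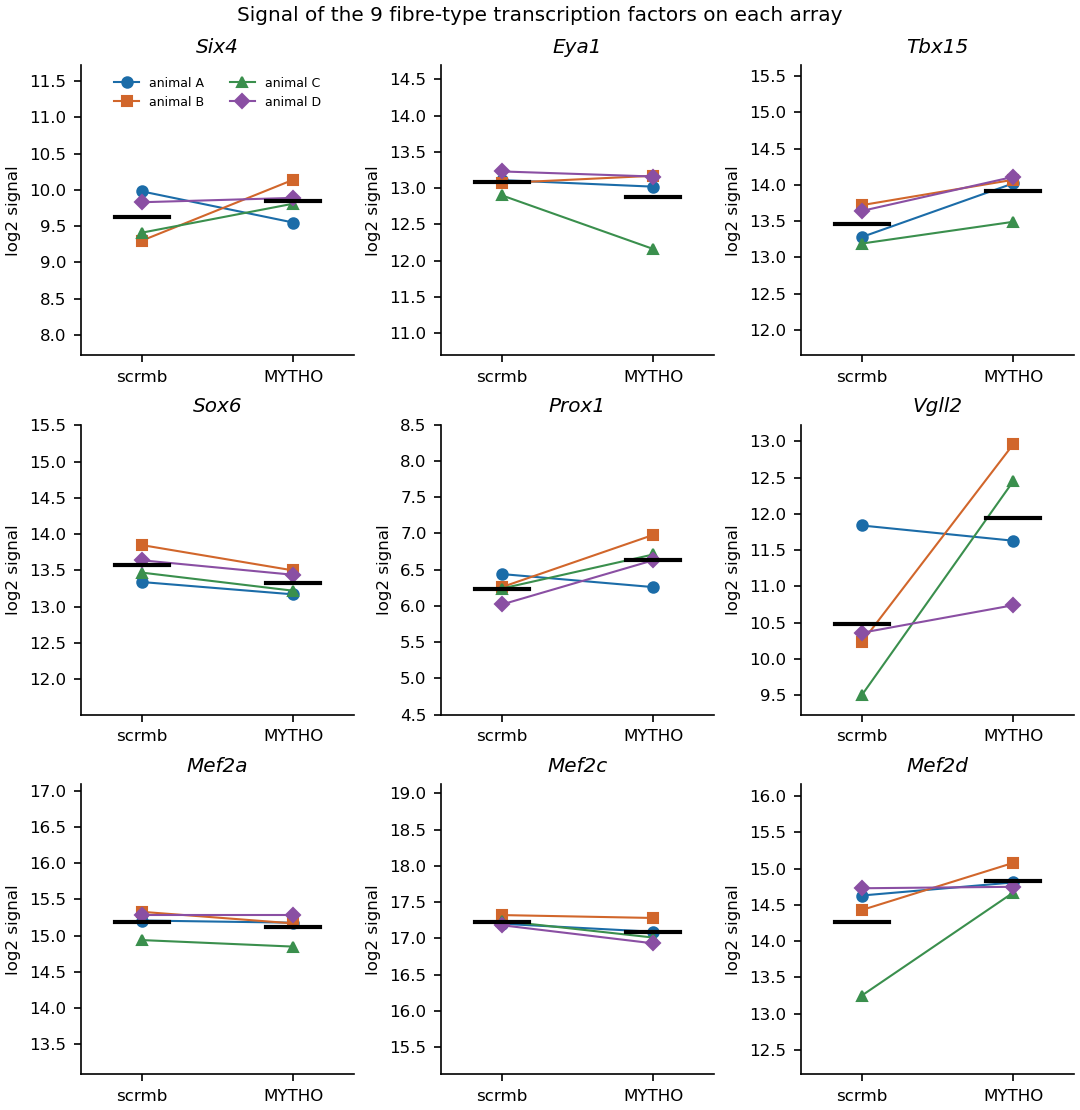
Log2 signal (vertical axis) of the 9 genes in the scrmb and MYTHO muscles, 1 panel per gene, with a symbol per animal, the 2 legs of an animal joined by a line and a bar for each group mean. Each panel spans the same range of log2 units, so slopes compare between panels. The groups overlap in each panel, and *Vgll2* has the widest spread, from 9.50 to 12.96.

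*Vgll2*, which encodes the vestigial-like TEAD cofactor enriched in skeletal muscle, gave log2 signals of 11.84, 10.23, 9.50 and 10.36 on the scrmb arrays of mice A to D and of 11.63, 12.96, 12.45 and 10.74 on the MYTHO arrays. The readings of animals B and C in the MYTHO group lay above all the others, while the scrmb reading of animal A lay above the MYTHO readings of animals A and D. Group means were 10.48 ± 0.98 and 11.95 ± 0.97 (SD, n = 4 each). The difference was 1.46 on the log2 scale, or 2.76-fold, with a 95% confidence interval of 1.27-fold to 5.99-fold. Limma gave an unadjusted p of 0.0149 and an adjusted p of 0.277. The exact two-sided permutation p was 0.0857, where 4 arrays against 4 allow no value below 0.0286. Within the animals the MYTHO leg differed from the scrmb leg by -0.21 in A, 2.73 in B, 2.95 in C and 0.38 in D, so 3 of 4 animals had the higher signal in the MYTHO leg and B and C carried most of the mean. The unadjusted p was 0.0517 without the scrmb array of C, 0.0527 without the MYTHO array of B, and 0.102 and 0.122 without both arrays of B or of C.

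The *Vgll2* promoter window printed above held no TEAD element, and the arrays read no binding or chromatin. The other vestigial-like genes had values on both sides of 0. *Vgll3* had a log2 difference of -0.57 (95% interval -1.04 to -0.10; limma adjusted p = 0.311), *Vgll1* of -0.03 and *Vgll4* of 0.19. *Tead1* encodes 1 of the TEAD factors through which such cofactors reach DNA. It had means of 14.40 ± 0.24 in scrmb and 14.38 ± 0.26 in MYTHO muscles (SD, n = 4 each), a log2 difference of -0.03 with a 95% interval of -0.46 to 0.40. *Tead2*, *Tead3* and *Tead4* gave log2 differences of 0.22, -0.14 and -0.27.

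*Tbx15*, a T-box factor of fast glycolytic fibres, read 13.28, 13.72, 13.19 and 13.64 on the scrmb arrays of mice A to D and 14.02, 14.07, 13.49 and 14.11 on the MYTHO arrays. Only the MYTHO reading of animal C was within the scrmb range, and each of the 4 animals had the higher reading in its MYTHO leg, by 0.74, 0.35, 0.30 and 0.47 log2 units in A to D. Means were 13.46 ± 0.26 and 13.92 ± 0.29 (SD, n = 4 each). The log2 difference of 0.46 corresponded to 1.38-fold, with a 95% interval of 0.01 to 0.92 on the log2 scale, an unadjusted limma p of 0.0441 and an adjusted p of 0.388. Leaving out the scrmb array of A or C, or the MYTHO array of A, B or D, gave unadjusted p-values of 0.101, 0.118, 0.0909, 0.0963 and 0.106. *Tbx18*, a relative of *Tbx15*, had a log2 difference of 0.21 (95% interval -0.18 to 0.61).

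*Six4*, a SIX-family homeoprotein that acts on fast genes, read 9.98, 9.30, 9.41 and 9.83 in the scrmb muscles and 9.55, 10.14, 9.81 and 9.89 in the MYTHO muscles of animals A to D. The groups were interleaved, with the scrmb muscle of A higher than 3 of the 4 MYTHO muscles. The log2 difference was 0.22 with a 95% interval of -0.24 to 0.68 (limma adjusted p = 0.732), and the animals gave -0.43, 0.84, 0.40 and 0.06. The difference was 0.11 without the scrmb array of B, 0.33 without that of A and, with both arrays of an animal left out, 0.01 without B and 0.43 without A. *Eya1*, the phosphatase and co-activator that works with them, read 13.11, 13.07, 12.90 and 13.23 in scrmb and 13.02, 13.17, 12.16 and 13.16 in MYTHO muscles. The MYTHO muscle of animal C stood alone below the other 7 readings. The log2 difference of *Eya1* was -0.20 (95% interval -0.71 to 0.31; limma adjusted p = 0.784), and without that array it was 0.04.

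*Eya4* read 11.36, 11.84, 11.54 and 11.64 in scrmb and 11.07, 10.73, 10.82 and 11.67 in MYTHO muscles. It differed by -0.52 (95% interval -1.02 to -0.03; limma adjusted p = 0.375), and animal D went the other way, by 0.03. *Six2*, *Six5*, *Eya2* and *Eya3* gave log2 differences of -0.43, 0.12, -0.07 and -0.22, none with an unadjusted p under 0.05. *Dach1* and *Dach2*, whose products form a complex with both kinds of protein, gave 0.32 and 0.46.

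*Sox6*, the repressor of slow genes, read 13.34, 13.85, 13.47 and 13.64 on the scrmb arrays of mice A to D and 13.17, 13.50, 13.22 and 13.44 on the MYTHO arrays. Each animal had the lower reading in its MYTHO leg, by -0.17, -0.35, -0.25 and -0.20 log2 units, yet the groups overlapped, with the MYTHO reading of B above the scrmb readings of A and C. Means were 13.57 ± 0.22 and 13.33 ± 0.16 (SD, n = 4 each), and the log2 difference was -0.24 (95% interval -0.64 to 0.15; limma adjusted p = 0.641). Over all probe sets, 10.8% were lower in the MYTHO leg of every animal and 8.94% were higher, so the 2 members lower in 4 of 4 animals, *Sox6* and *Mef2c*, and the 2 higher in 4 of 4, *Tbx15* and *Mef2d*, are to be read against those shares. *Sox5*, which encodes a close relative of SOX6, had a log2 difference of 0.17 (95% interval -0.20 to 0.54), and *Sox13* of 0.25.

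*Prox1* encodes a homeodomain factor of slow fibres that is also made by lymphatic endothelium. It read 6.44, 6.26, 6.24 and 6.02 in scrmb and 6.26, 6.98, 6.71 and 6.63 in MYTHO muscles of animals A to D. The MYTHO readings of B, C and D were above all scrmb readings, and that of A was not. The animals gave -0.18, 0.72, 0.47 and 0.61 log2 units. Means were 6.24 ± 0.17 and 6.64 ± 0.30 (SD, n = 4 each), with a log2 difference of 0.41 (95% interval -0.02 to 0.83; limma adjusted p = 0.430). The endothelial list had values in the same direction as *Prox1*: the 5 endothelial markers averaged 9.70 to 10.03 in scrmb and 10.13 to 10.50 in MYTHO muscles, all 5 had a log2 difference above 0, and *Pecam1* and *Cdh5*, with 0.45 and 0.22, had groups that did not overlap. The 5 lymphatic markers averaged 7.29 to 7.87 and 7.28 to 7.65, with 2 of 5 above 0, *Flt4* at 0.34 and *Ccl21a*, whose probe set also names *Gm1987*, at -0.63. The part of either cell type in the *Prox1* values was not tested.

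**Figure D2:**
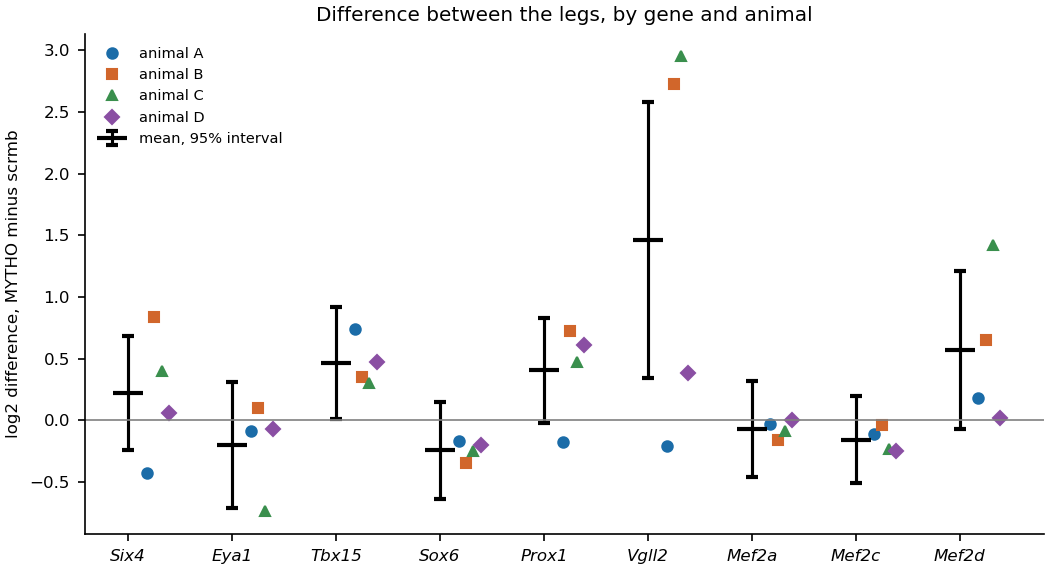
Log2 difference between the MYTHO and the scrmb leg (vertical axis) for each of the 9 genes, with a symbol per animal, a thick bar for the mean and whiskers for the 95% confidence interval of the limma fit. The intervals of *Vgll2* (0.34 to 2.58) and *Tbx15* (0.01 to 0.92) lie above 0, and the other 7 include it.

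The 3 MEF2 genes of the set had values on both sides of 0. *Mef2d* read 14.63, 14.43, 13.25 and 14.73 on the scrmb arrays of mice A to D and 14.81, 15.08, 14.67 and 14.75 on the MYTHO arrays. The scrmb muscle of animal C was the lowest by more than 1 log2 unit and the MYTHO muscle of B the highest. The log2 difference of *Mef2d* was 0.57 (95% interval -0.07 to 1.21; limma adjusted p = 0.465), with 0.18, 0.65, 1.42 and 0.02 in animals A to D, and it was 0.23 without the scrmb array of C.

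*Mef2a* read 15.21, 15.33, 14.94 and 15.29 in scrmb and 15.18, 15.17, 14.85 and 15.29 in MYTHO muscles, and animal C had the lowest reading in both groups. Its log2 difference was -0.07, with a 95% interval of -0.46 to 0.32 (limma adjusted p = 0.911), and the animals gave -0.03, -0.16, -0.09 and 0.00. *Mef2c*, the MEF2 gene needed for sarcomere integrity, read 17.20, 17.32, 17.24 and 17.18 in scrmb and 17.09, 17.28, 17.01 and 16.93 in MYTHO muscles. The MYTHO reading of B was the only one inside the scrmb range. The log2 difference of *Mef2c* was -0.16 (95% interval -0.51 to 0.20; limma adjusted p = 0.753), and the MYTHO leg of each animal read lower, by -0.11, -0.04, -0.23 and -0.25 in A to D. *Mef2b* had a log2 difference of 0.24 (95% interval -0.26 to 0.75).

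Class IIa histone deacetylases, which bind MEF2 proteins and silence their targets, were read as well. *Hdac5* gave 6.17, 6.23, 5.81 and 6.27 in the scrmb and 6.49, 7.01, 6.65 and 6.61 in the MYTHO muscles of animals A to D, so all MYTHO readings lay above all scrmb readings. The log2 difference was 0.57 (95% interval 0.16 to 0.98; limma unadjusted p = 0.0105, adjusted p = 0.252), higher in 4 of 4 animals. The probe set also names *Mir8101*, so the signal cannot be assigned to *Hdac5* alone. *Hdac4*, for which the brighter of 2 probe sets was taken, had a log2 difference of -0.05 (95% interval -0.73 to 0.62), *Hdac7* of 0.16 and *Hdac9* of -0.03. None of the 12 known MEF2 target genes on the list, such as *Myom1* at -0.27, *Srpk3* at 0.41 and *Nr4a1* at 0.50, had an unadjusted p under 0.05, and the median of the 12 log2 differences was -0.01. In other fits 1 such gene had the higher mean at an unadjusted p under 0.05 without the scrmb array of B or D, the MYTHO array of C or D, or both arrays of D.

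In all, 29 relatives, partners and repressors of the 9 factors were on the array. None passed the adjusted test, *Hdac5* had an unadjusted p under 0.05 with the higher mean in MYTHO muscles, and *Eya4* and *Vgll3* did so with the lower. These counts, 1 higher and 2 lower of 29, are no larger a share than that of all probe sets, 4.81% and 7.58%. The median log2 difference was 0.16, with 17 of 29 above 0, and the 27 that are plotted ranged from -0.57 (*Vgll3*) to 0.57 (*Hdac5*). With the animal as a block, 4 in place of 2 were lower at an unadjusted p under 0.05: *Six2* (unadjusted p = 0.0481) and *Maf* (unadjusted p = 0.0498) joined *Eya4* and *Vgll3*. The count of 2 was 3 without the scrmb array of A, 1 with median centring, without the scrmb array of B, C or D, without the MYTHO array of A or B, and without both arrays of C, and it was 0 without the MYTHO array of C and without both arrays of A or of B. The count of 1 in the higher direction was 2 without both arrays of A and 1 in every other fit.

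**Figure D3:**
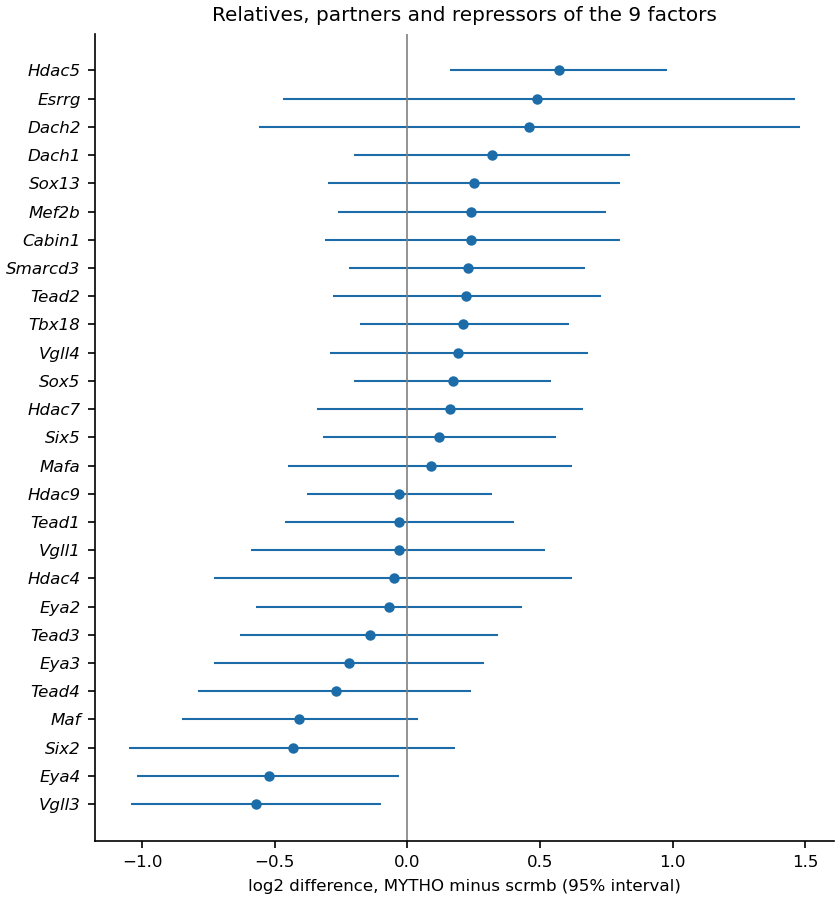
Log2 difference between MYTHO and scrmb muscles (horizontal axis) of 27 of the 29 relatives, partners and repressors, as points with 95% confidence intervals from the limma fit, ordered by value. Only the intervals of *Hdac5*, *Eya4* and *Vgll3* leave out 0.

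Genes of slow and fast fibres, on which these regulators act, were read as a list each. All 14 slow-fibre genes of the list had a log2 difference above 0, with a median of 1.29 and a range of 0.39 (*Myh7b*) to 2.44 (*Tnni1*, slow troponin I). *Sln*, which encodes a regulator of the calcium pump, was above 0 (0.40) through the MYTHO array of A alone, which read 12.08: the animals gave 3.71, -1.08, -0.42 and -0.62, so that it was lower in the MYTHO leg of B, C and D. None passed the adjusted test, 8 of the 14 passed the study's threshold with the higher mean in MYTHO muscles, against 0.261% of all probe sets. An unadjusted p under 0.05 in that direction was given by 11 slow genes, against 4.81% of all probe sets. *Myl6b*, a slow alkali light chain gene, was the only 1 whose groups did not overlap, at 4.93, 5.14, 5.40 and 4.99 in scrmb and 6.74, 5.50, 5.83 and 5.55 in MYTHO muscles (log2 difference 0.79, 95% interval 0.21 to 1.37; limma adjusted p = 0.261). *Myh7*, the slow myosin heavy chain gene, read 13.75, 11.53, 11.89 and 11.68 in scrmb and 15.13, 14.68, 14.74 and 11.58 in MYTHO muscles, so the MYTHO muscle of animal D was as low as the scrmb muscles of B to D. *Myh7b*, a slow-type myosin gene that hosts a microRNA, read 5.39, 5.36, 5.69 and 5.77 in scrmb and 6.05, 5.94, 6.06 and 5.73 in MYTHO muscles (limma adjusted p = 0.397).

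Of the 14 slow genes, 8 read higher in the MYTHO leg of all 4 animals, as did 8.94% of all probe sets. The count of 11 with an unadjusted p under 0.05 was again 11 with the animal as a block, but of other genes. *Myl2* entered (limma unadjusted p = 0.131 without the block, 0.0181 with it) and *Myh7b* left (0.0482 and 0.0752). The block also moved p-values of genes that stayed, such as *Tnni1* (0.0151 and 0.00109, block adjusted p = 0.158) and *Myl6b* (0.0118 and 0.0149). The count was 11 without the scrmb array of A, 13 without the MYTHO array of D, and 8 and 12 without both arrays of A or of D. It was lower without other arrays, at 3, 5 and 4 without the scrmb arrays of B, C and D, 2, 3 and 1 without the MYTHO arrays of A, B and C, and 1 without both arrays of B or of C. With a mean-variance trend and robust moderation in limma it was 2. The count of slow genes lower in MYTHO muscles at an unadjusted p under 0.05, 0 as reported, was 1 without the MYTHO array of A and without both arrays of A.

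Of 13 fast-fibre genes, 4 were at the upper limit of the scale on at least 1 array, and others such as *Tnnt3*, at 19.87 on all arrays but that of MYTHO B, lay just under it with hardly any spread, so differences of these genes cannot be read in full and no median is given. *Myh1*, the type 2X myosin gene, was the only 1 with an unadjusted p under 0.05, at 17.02, 16.47, 16.06 and 16.61 in scrmb and 17.07, 17.68, 17.45 and 16.75 in MYTHO muscles (log2 difference 0.70; limma adjusted p = 0.295). Of 9 glycolytic genes, 3 at the upper limit, *Gpd1* alone had an unadjusted p under 0.05, with a log2 difference of -0.51 (limma adjusted p = 0.358). The *Myh1* count was 0 without the scrmb array of C or the MYTHO array of B, and without both arrays of B or of C. The *Gpd1* count was 0 with median centring, without the scrmb array of B or D or the MYTHO array of B or C, and without both arrays of B, C or D.

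Across the 8 arrays, the slow genes and the regulators can be set side by side. The mean log2 signal of the 14 slow genes was 12.04, 10.76, 10.77 and 10.40 on the scrmb arrays of mice A to D and 13.17, 12.57, 12.76 and 10.53 on the MYTHO arrays. The 2 legs of animal A and the MYTHO legs of B and C were high, and the other 4 muscles were low. *Vgll2* had its 4 highest readings in the same 4 muscles, but in another order. The MYTHO muscle of A, with the highest slow-gene mean, had the lowest of these 4 *Vgll2* readings, 11.63. That reading was below the 11.84 of the scrmb muscle of A, whose slow-gene mean was lower. *Sox6* sorted the muscles in part: its 3 lowest readings, 13.17, 13.22 and 13.34, were in the MYTHO muscles of A and C and the scrmb muscle of A, where slow genes were high, but the MYTHO muscle of B, also high in slow genes, read 13.50, above the MYTHO muscle of D at 13.44 and the scrmb muscle of C at 13.47. *Prox1* followed the slow genes less closely, since the MYTHO muscle of D had a high *Prox1* reading, 6.63, and a low slow-gene mean. No coefficient is given, since the 8 muscles came from 4 animals.

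**Figure D4:**
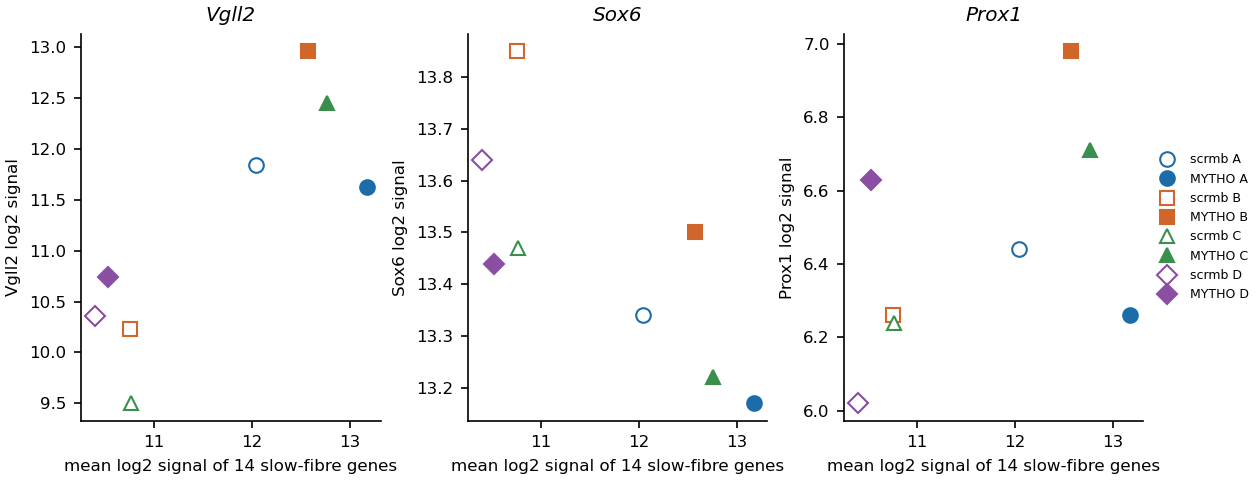
Log2 signal of *Vgll2*, *Sox6* and *Prox1* (vertical axes) against the mean log2 signal of the 14 slow-fibre genes (horizontal axis) in the 8 muscles, open symbols for scrmb and filled for MYTHO, with a shape and colour per animal. The 4 muscles with a slow-gene mean of 12.04 or more hold the 4 highest *Vgll2* readings, 11.63 to 12.96.

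By the root mean square difference between centred profiles over the 8 arrays, among 19022 probe sets of 1 symbol, the profiles nearest to that of *Vgll2* were *Lrrc52* at 0.17, *Cyfip2* at 0.30 and *Bag3* at 0.32 log2 units, where the *Vgll2* profile itself varied by 1.12 about its mean. *Lrrc52*, an auxiliary subunit of potassium channels, read 8.79, 7.07, 6.79 and 7.42 in scrmb and 8.41, 9.68, 9.39 and 7.76 in MYTHO muscles of animals A to D, with the same muscles high. *Cyfip2*, a subunit of an actin-regulating complex, and *Bag3*, a co-chaperone of the Z-disc, had log2 differences of 1.86 and 1.15. Of the 14 slow genes, 9 were among the 207 nearest profiles, from rank 22 for *Atp2a2*, the slow calcium pump gene, at 0.51 to rank 207 for *Myh7* at 0.77. The other 5 were farther off, the last being *Sln* at 1.83 and rank 19003. The measure counts the size of the differences between arrays as well as their order. *Tnni1*, at 1.06 and rank 4931, had its highest readings in the same muscles as *Vgll2*, with a log2 difference of 2.44. For *Sox6*, the nearest were *Zfp759* at 0.06 and *Tbl1xr1* at 0.09, and the *Sox6* profile varied by 0.21. The nearest of so many profiles are close by selection.

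The extreme readings of the 9 genes were spread unevenly over the arrays. The MYTHO muscle of animal B had the highest reading of its group for 7 of the 9, namely *Six4*, *Eya1*, *Sox6*, *Prox1*, *Vgll2*, *Mef2c* and *Mef2d*, and over all probe sets it was the highest for 30.0%. The scrmb muscle of C was the lowest of its group for *Eya1*, *Tbx15*, *Vgll2*, *Mef2a* and *Mef2d*, and was so for 24.5% of probe sets. The MYTHO muscle of C was the lowest for *Eya1*, *Tbx15*, *Mef2a* and *Mef2d*, and for 29.6% of probe sets. Spreads among the animals ran from 0.06 (*Mef2c*) to 0.98 (*Vgll2*) in scrmb and from 0.15 (*Mef2c*) to 0.97 (*Vgll2*) in MYTHO muscles, as SDs of log2 signal.

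Markers of further cell types were read beside these values. *Cdh15* of the satellite cell list had groups that did not overlap, with a log2 difference of 0.51. The groups of *Pax7*, *Myf5*, *Calcr* and *Vcam1* of that list overlapped, with 0.00, -0.12, 0.23 and 0.08. The satellite cell list averaged 5.28 to 5.57 in scrmb and 5.56 to 5.62 in MYTHO muscles. *Dcn*, a fibroblast gene, had a log2 difference of -0.59 without overlap, while the list averaged 11.15 to 11.27 and 10.81 to 11.32. The other fibroblast genes had overlapping groups, *Pdgfra*, *Dpt* and *Col1a1* at -0.22, -0.20 and -0.30 and *Lum* the other way at 0.26. The smooth muscle list averaged 10.96 to 11.52 and 11.15 to 11.80, with *Rgs5* at 0.45. List means of macrophage, lymphocyte, Schwann cell and adipocyte markers overlapped between the groups, adipocyte markers with the widest range, 7.66 to 11.68. The part of these cells in the values of the 9 genes was not tested.

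The values of *Vgll2* and *Tbx15* were computed again under 22 other settings, and both stayed above 0 in each. The size of *Vgll2* depended mostly on which animals were in the fit: it was 0.97 without both arrays of C, 1.04 without those of B, 1.82 without those of D and 2.02 without those of A.

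**Figure D5:**
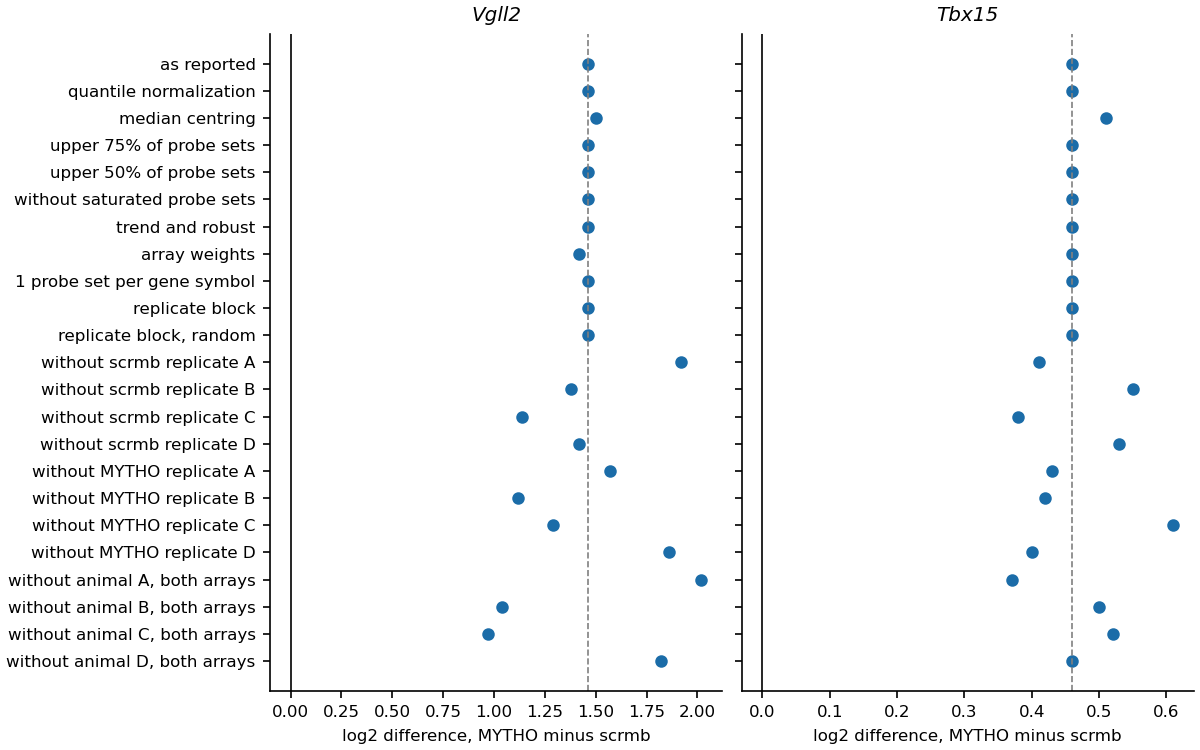
Log2 difference between MYTHO and scrmb muscles (horizontal axis) of *Vgll2* and *Tbx15* under each alternative processing or left-out array (rows), with a dashed line at the reported value. *Vgll2* ranged from 0.97 to 2.02 and *Tbx15* from 0.37 to 0.61, all above 0.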

How the data were processed

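RNA of samples from 4 scrmb and 4 MYTHO GAS muscles was hybridised to Affymetrix Clariom S mouse arrays. The authors deposited gene-level log2 signals, 1 per probe set and array, made by RMA-type summarisation in the Transcriptome Analysis Console 4.0.1 (annotation release 36, mm10) and rounded to 2 decimals. From there, MYTHO was compared with scrmb by limma 3.58.1 in R 4.3.3 on all 22206 probe sets, with Benjamini-Hochberg adjustment and no pairing term. Precision is limited by the number of arrays. Column names carry animal numbers, so the animal pairs the legs by design. Deviations from the group means correlated by 0.00266, -0.00145, 0.135 and 0.0871 between the legs of animals A to D. The labels' replicate numbers could not be tied to these columns and were not used. Symbols of all 135 list genes matched; the brightest row stood for a gene. The 9 members were named throughout, as were *Hdac4*, *Tead1* and *Myh7b*; a few values under this rule are not reported here. List genes were named when they had an unadjusted p under 0.05 and no overlap (at most 6 per list), together with the 3 nearest profiles of the members with the smallest p in each direction. Others, such as *Vgll3*, *Eya4*, *Myh1*, *Gpd1* and *Myh7*, were named after their values were seen. Members and lists were chosen with earlier results of these data known. Fits were tested on simulated data. Alternatives covered normalization, low-signal and saturation filters, variance model, array weights, pairing and left-out arrays. The authors' fold changes and p-values were not used.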

Additional observations from a re-analysis of the deposited data

Results flagged for a closer look

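Of 64 sets of 4 arrays examined, 3 had 1 array whose gap to its nearest neighbour exceeded Dixon's 95% critical value for 4 samples, and chance gives about 1 in 20. All 3 were the MYTHO array of animal C. It read 12.16 for *Eya1*, against 13.02 to 13.17 on the other MYTHO arrays (gap 0.851 of the range). For *Tbx15* it read 13.49, against 14.02 to 14.11 (0.855). For *D230025D16Rik*, the targeted gene, it read 8.80, against 8.08 to 8.20 (0.833).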

How the results depend on the processing

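No member had an adjusted p under 0.05 under any of 22 alternative settings, 18 of them planned and 4, which left out both arrays of an animal, added after seeing the data; nor did any have an adjusted p under 0.1 in the fit as reported. Of 198 member values under these settings, 196 kept their direction and side of the threshold. Both exceptions came without the MYTHO array of animal C, where *Eya1* was 0.04 and *Mef2a* 0.02; leaving out 1 array at a time, they ranged from -0.30 and -0.15 up to these values. The count past the study's threshold, 1, was 0 with a mean-variance trend and robust moderation, where the unadjusted p was 0.0549 for *Vgll2*, 0.0489 for *Mef2d* and 0.0173 for *Tbx15*. It was 0 to 1 when 1 array was left out, and 0 without animal B or C. Members with an unadjusted p under 0.05, 2 as reported, numbered 0 to 3 when 1 array was left out (3 without the scrmb array of D, *Mef2d* added, 0 without the scrmb array of C or the MYTHO array of B, 1 without the MYTHO array of D), 0 without animal B and 1 without animal C or D. *Prox1* was added, making 3, after quantile normalization, median centring or a filter to the upper 50% of probe sets. Members without overlap, 0 as reported, numbered 1 after quantile normalization (*Mef2c*), 0 to 2 when 1 array was left out, 2 without animal A or C and 1 without animal B or D. Fewer arrays overlap less often: of all probe sets, 6.46% lacked overlap in either direction as reported, 8.79% to 13.5% without 1 array and 12.5% to 18.6% without 1 animal. With the replicate block, *Vgll2* kept 1.46 with an adjusted p of 0.285, and the block changed no other call of a member. Averaging the rows of a gene gave no other value, since each member had 1. *D230025D16Rik* stayed between -3.09 and -2.69 and was called throughout. The causes were not tested.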
